A study of Mus musculus with 20 samples.

Results

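The genes described here encode proteins of the contractile apparatus of skeletal muscle and of the calcium and energy supply that serve it. They are *Acta1*, *Tcap*, *Ckm*, *Myh1*, *Myh2*, *Myh4*, *Tnnt3*, *Mylpf*, *Pvalb* and *Atp2a1*, 10 of the 43422 Ensembl genes in the series, and they were chosen by name as a group of skeletal muscle genes, to ask whether all of them move together between aortas. RNA was sequenced from the abdominal aorta of 20 C57BL/6 mice (C57Bl/6NCrl in the study's methods), 1 library per mouse and 5 mice in each of 4 groups. WT mice and mice lacking lysyl hydroxylase 1 (*Plod1*-/-, a whole-body knockout of an enzyme that modifies collagen) received either saline or angiotensin II (Ang II) at 1000 ng/kg per min through subcutaneous osmotic pumps. Aortas were taken on day 14, the labels give an age of 6 months in every group, and the study's methods state that male littermates were used and give a younger age at the start of infusion. The values are FPKM, which express the fragments of a gene relative to its transcript length and to the size of the library.

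Skeletal muscle fibres shorten when myosin heavy chains pull on actin filaments inside the sarcomere, and calcium acting on the troponin complex switches this on. The aortic wall contracts through smooth muscle cells, which use another set of actin and myosin genes (*Acta2*, *Myh11*) and have no sarcomeres. Limb and trunk muscles mix fast and slow fibres, and fast fibres differ further in which of the heavy chains encoded by *Myh1*, *Myh2* and *Myh4* they carry.

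The sequences below are the RefSeq promoter windows (GRCm38.p6, the 250 bases before each annotated start, 5′ to 3′) of *Acta1* and of the myosin heavy chain genes *Myh4*, *Myh1* and *Myh2*, which lie in one cluster on chromosome 11 and were present in different proportions in different aortas. Capitals mark matches on either strand to the CArG box (the serum response factor motif), the MEF2 motif, the core promoter element TATAAA, and the E-box CANNTG, which is bound by MyoD and its relatives.
*Acta1* (chr8:123894776-123895025, minus strand): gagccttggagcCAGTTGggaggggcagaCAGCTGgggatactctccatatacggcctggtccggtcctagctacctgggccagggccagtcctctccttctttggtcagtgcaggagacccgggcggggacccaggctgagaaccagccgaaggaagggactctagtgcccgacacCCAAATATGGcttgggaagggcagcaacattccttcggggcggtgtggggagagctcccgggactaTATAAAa
*Myh4* (chr11:67237562-67237811, plus strand): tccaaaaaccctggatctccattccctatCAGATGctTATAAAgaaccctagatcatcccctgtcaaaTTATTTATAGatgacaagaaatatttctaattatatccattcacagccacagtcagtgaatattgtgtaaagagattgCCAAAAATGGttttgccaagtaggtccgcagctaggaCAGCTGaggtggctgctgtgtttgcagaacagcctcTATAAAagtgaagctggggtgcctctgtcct
*Myh1* (chr11:67199852-67200101, plus strand): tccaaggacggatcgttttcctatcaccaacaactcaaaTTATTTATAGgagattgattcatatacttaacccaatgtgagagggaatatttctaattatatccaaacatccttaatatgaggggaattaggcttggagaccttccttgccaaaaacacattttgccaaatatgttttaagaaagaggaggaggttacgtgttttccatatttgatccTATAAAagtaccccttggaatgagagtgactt
*Myh2* (chr11:67170777-67171026, plus strand): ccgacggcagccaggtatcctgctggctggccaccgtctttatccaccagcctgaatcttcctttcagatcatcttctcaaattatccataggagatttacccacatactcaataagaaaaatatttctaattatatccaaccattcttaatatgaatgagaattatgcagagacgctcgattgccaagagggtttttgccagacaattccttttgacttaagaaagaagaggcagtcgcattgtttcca

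The *Acta1* window held 1 CArG box, starting 73 bases before the start, together with 2 E-boxes and 1 TATAAA. The *Myh4* window held 1 CArG box and 1 MEF2 match, starting 104 and 182 bases before the start, with 2 E-boxes. The *Myh1* window held 1 MEF2 match, starting 211 bases before the start, and the *Myh2* window held none of these letters. In both *Myh1* and *Myh4* a TATAAA overlapped the MEF2 match. Among 32851 mouse promoter windows of this length, a CArG box was present in 1.47%, a MEF2 match in 2.92%, an E-box in 66.2% and TATAAA in 12.4%. RefSeq windows were matched for 8 of the 10 genes, *Tcap* and *Tnnt3* being the others. These matches are descriptions of sequence and were not tested for binding.

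Among the libraries, FPKM sums ran from 344207 to 437790 and the relative depth read from the lowest values ran from 0.906 to 1.09. *Plod1* lay at 22.8 FPKM or more in every WT mouse and at 0.0415 or less in every *Plod1*-/- mouse. Xist RNA was present in saline-treated *Plod1*-/- replicate 5 (15.1 FPKM) and Ang II-treated *Plod1*-/- replicate 1 (7.93 FPKM), whereas it was at most 0.0328 FPKM in the other 18 libraries. Those 2 libraries go against the stated sex, and results that rest on them are given with and without them where a call changed. Mitochondrial genes took 14.6% to 29.1% of the FPKM sum in WT aortas under Ang II and 8.37% to 14.6% under saline. The smooth muscle label of the tissue was met in every library: the lowest *Acta2* and *Myh11* values were found in Ang II-treated *Plod1*-/- mice, at 1901 and 166 FPKM.

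Of the 10 genes, 9 shared a pattern. They lay at or below 3.40 FPKM in every saline-treated mouse and every *Plod1*-/- mouse, and in Ang II-treated WT replicates 2, 3 and 5 they exceeded all mice of the other groups. In replicate 4 they lay below those 3 libraries, except *Myh2*, which was higher there than in replicate 3, and in replicate 1 none of the 9 exceeded the mice of the other groups. *Tcap* did not share it. It was abundant in every saline-treated aorta and lowest in Ang II-treated *Plod1*-/- mice, so the 10 genes did not move together.

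**Figure D1:**
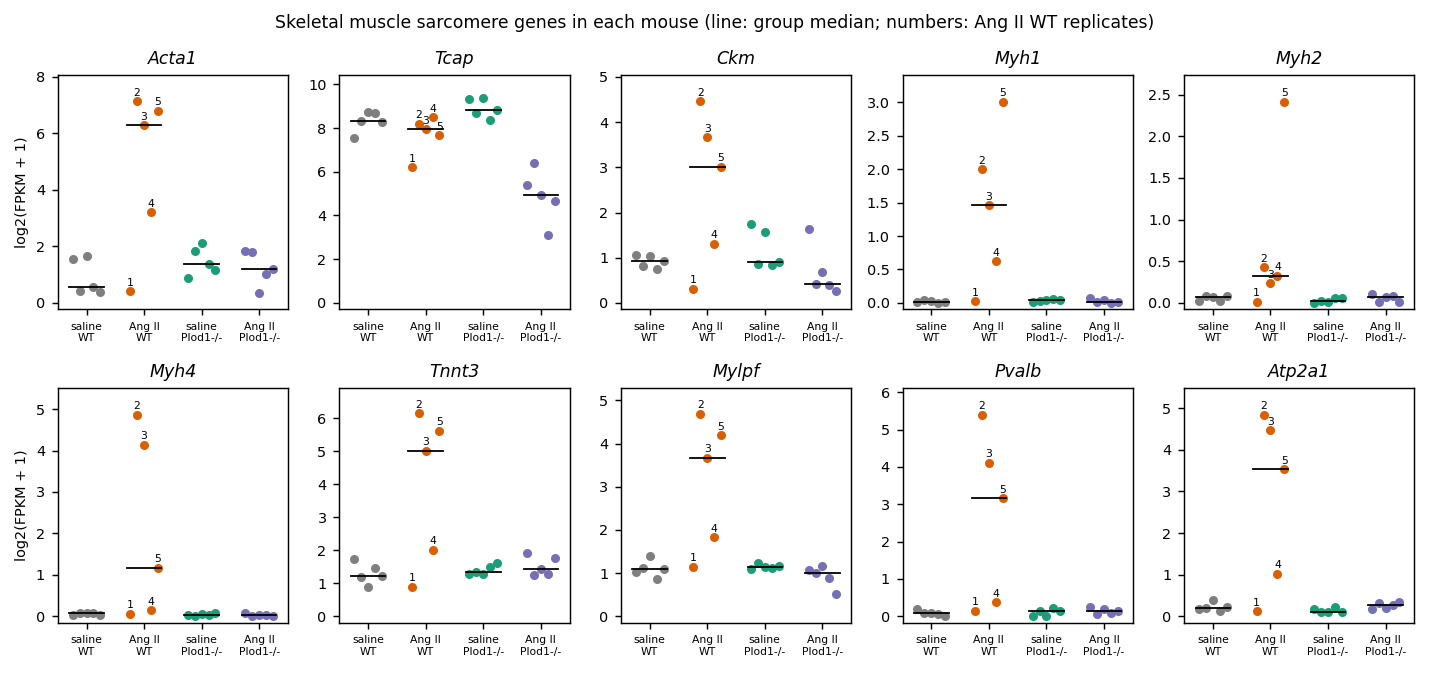
Level of each gene in each mouse as log2(FPKM + 1) on the vertical axis, by group on the horizontal axis, with 1 point per mouse, a line at the group median and the replicate number beside each Ang II-treated WT mouse. In 9 panels the Ang II-treated WT mice spread from the baseline (replicate 1) to the highest values of the series, whereas in the *Tcap* panel the Ang II-treated *Plod1*-/- mice form the low group.

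*Acta1*, the actin of skeletal muscle thin filaments (ENSMUSG00000031972, chr8:123891769-123894751, minus strand, GRCm38), reached the highest single value of these 9 genes. Its FPKM in Ang II-treated WT replicates 1 to 5 was 0.336, 141, 77.2, 8.30 and 111. In saline-treated WT mice it was 1.96, 0.337, 2.18, 0.460 and 0.306. In all, 4 of the Ang II-treated WT libraries thus exceeded every mouse of the other groups, and replicate 1 lay among the saline-treated mice, so the groups overlapped. In saline-treated *Plod1*-/- mice it was 0.845, 2.54, 3.40, 1.57 and 1.25, and under Ang II 2.60, 2.49, 0.270, 1.03 and 1.32. The *Plod1*-/- groups covered the same low range, and the top WT value was 41.4 times the highest value outside its group.

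*Myh4*, the heavy chain of the fastest fibres (chr11:67238029-67260446, plus strand), was measured at 0.0429, 28.1, 16.7, 0.110 and 1.24 FPKM in Ang II-treated WT replicates 1 to 5 and at 0.0614 FPKM at most in the other 15 mice. *Myh1*, the heavy chain of fast fibres of the IIx kind (chr11:67200052-67224575), was at 0.0174, 2.998, 1.75, 0.538 and 7.08 FPKM, against 0.0545 at most elsewhere. *Myh2*, found in fast oxidative fibres (chr11:67171027-67197517), was at 0.0103, 0.343, 0.178, 0.254 and 4.34 FPKM, against 0.0754 at most elsewhere. For all 3 heavy chains, replicates 2 to 5 exceeded every mouse of the other groups and replicate 1 did not. The makeup differed among these aortas. *Myh4* made up 89.4% and 89.6% of the summed FPKM of the 3 heavy chains in replicates 2 and 3, but 12.2% and 9.83% in replicates 4 and 5. *Myh1* made up 59.6% and 55.9% of it in replicates 4 and 5, and *Myh2* 28.2% and 34.3%. The sum in replicate 4 was only 0.902 FPKM, against 12.7 in replicate 5 and 31.4 in replicate 2. The libraries therefore split into a pair rich in *Myh4* and a pair rich in *Myh1* and *Myh2*, a difference between single mice that no replicate check covers. The 3 genes are close copies: 32.1% of the 50-base words of the *Myh1* transcript, 28.9% of *Myh2* and 18.9% of *Myh4* also occurred in another gene, so reads may have been divided among them.

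**Figure D2:**
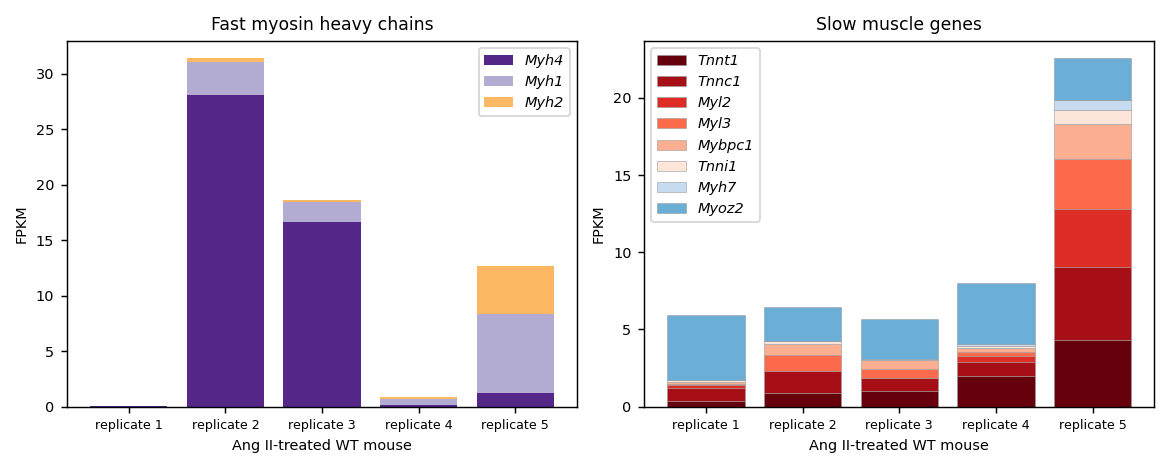
Stacked FPKM in the 5 Ang II-treated WT mice of the fast myosin heavy chains (left) and of the 8 genes of the slow skeletal muscle list (right), with mice on the horizontal axis and FPKM on the vertical axes. Replicates 2 and 3 are mostly *Myh4* and replicates 4 and 5 mostly *Myh1* and *Myh2*, and replicate 5 holds the largest sum of slow genes, 22.6 FPKM.

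*Tnnt3*, fast skeletal troponin T (chr7:142498836-142516009), was at 0.861, 70.1, 31.4, 3.04 and 48.6 FPKM in Ang II-treated WT replicates 1 to 5, and at 2.77 FPKM at most in the other mice. *Mylpf*, the regulatory light chain of fast myosin (chr7:127208890-127214298), was at 1.21, 24.8, 11.8, 2.56 and 17.2 FPKM, against 1.63 at most elsewhere. The order of the 5 libraries was the same for *Acta1*, *Tnnt3* and *Mylpf*: replicate 2, then 5, 3, 4 and 1. The span of *Tnnt3* overlaps that of *Prr33*, which is read from the other strand. No 50-base word of the *Tnnt3* transcript occurred in another gene, on either strand, and the same held for *Mylpf*. *Prr33* itself was listed at 4.80 to 6.64 FPKM in Ang II-treated WT mice and 4.06 to 8.78 in saline-treated WT mice, and at 4.98 to 11.6 and 3.33 to 15.5 in saline-treated and Ang II-treated *Plod1*-/- mice.

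*Atp2a1*, the calcium pump SERCA1 of the fast-fibre sarcoplasmic reticulum (chr7:126445858-126463108, minus strand), was at 0.0847, 27.8, 21.1, 1.03 and 10.6 FPKM in the same mice, against 0.307 at most elsewhere. *Pvalb*, the calcium buffer parvalbumin of fast fibres (chr15:78191114-78206400, minus strand), was at 0.106, 41.0, 16.3, 0.301 and 7.97 FPKM, against 0.185 at most elsewhere. *Ckm*, muscle creatine kinase (chr7:19404776-19422841), was at 0.240, 21.1, 11.7, 1.48 and 7.10 FPKM, against 2.35 at most elsewhere. These genes of calcium and energy handling followed the order replicate 2, 3, 5, 4 and 1, which was also that of *Myh4*. In replicate 4, *Ckm* lay below the highest mouse of the other groups, the single exception among the 9 genes in that library. *Atp2a1* shares 18.3% of its 50-base words with another gene, above all the overlapping *Rabep2*, which was listed at 4.30 to 8.65 FPKM over all mice. *Ckm*, *Myh1* and *Myh2* also overlap genes of the other strand, which reached 0.223 FPKM at most.

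Counted per library over all 10 genes, 9 exceeded the other 15 mice in replicates 2, 3 and 5 of the Ang II-treated WT group. In replicate 4 it was 8 of 10, and in replicate 1 it was 0 of 10. The 9 genes without *Tcap* were set apart by this pattern itself, so a count over them alone is not independent of it. Among the 16402 genes that reached 1 FPKM in some mouse, the share above the other 15 mice was 10.1%, 7.89% and 11.2% in replicates 2, 3 and 5, 5.52% in replicate 4 and 7.88% in replicate 1. The summed FPKM of the 9 genes was 2.91, 357, 188, 17.6 and 215 in replicates 1 to 5, and between 3.91 and 9.08 in the other 15 mice. Relative to *Acta1*, the level of *Tnnt3* stayed between 0.366 and 0.498 in replicates 2 to 5 and that of *Mylpf* between 0.152 and 0.308, whereas that of *Myh4* ran from 0.0112 to 0.216. The range was narrower for the troponin and the light chain than for *Myh4*.

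*Tcap* encodes telethonin, which caps titin at the Z-disc of striated muscle (ENSMUSG00000007877, chr11:98383811-98384953, plus strand). Its FPKM was 184, 321, 431, 414 and 310 in saline-treated WT mice, and with Ang II it was 73.6, 294, 245, 358 and 205. In saline-treated *Plod1*-/- mice it was 648, 407, 658, 330 and 457, and in Ang II-treated *Plod1*-/- mice 40.6, 84.4, 29.4, 7.61 and 24.1. Outside the Ang II-treated *Plod1*-/- group, *Tcap* was at 184 FPKM or more in 14 of 15 mice, and the exception, Ang II-treated WT replicate 1, lay within the range of that group. The order of the Ang II-treated WT libraries was 4, 2, 3, 5 and 1, and none exceeded the mice of the other groups. Its level in saline-treated mice was more than that of the other 9 genes together, whose sum was 8.13 FPKM at most there. No 50-base word of its transcript occurred in another gene.

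**Figure D3:**
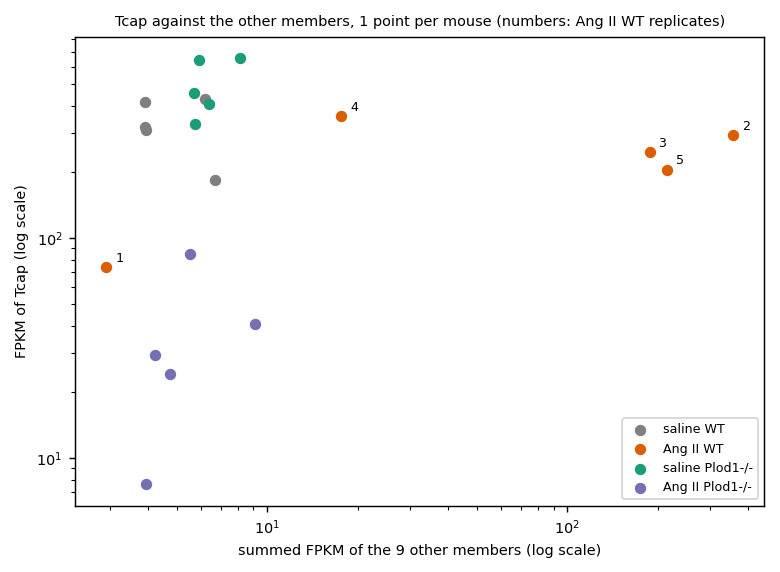
FPKM of *Tcap* (vertical axis, log scale) against the summed FPKM of the other 9 genes (horizontal axis, log scale), 1 point per mouse, coloured by group, with the replicate number beside the Ang II-treated WT mice. The Ang II-treated WT replicates 2, 3, 4 and 5 move to the right at *Tcap* levels from 205 to 358 FPKM, and the Ang II-treated *Plod1*-/- mice lie low at sums from 3.94 to 9.08 FPKM.

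Whether Ang II changed these genes in WT aortas was tested with limma on log2(FPKM + 1), where a change from a low level looks smaller than it is. A gene was called when its Benjamini-Hochberg adjusted p over all genes tested was below 0.05 and its log2 fold change exceeded 1 in size, and the test was limited to genes that reached 1 FPKM in 5 or more of the 10 mice. The p-values measure the spread between mice, and the groups of Ang II-treated mice serve in more than one comparison. Of the 10 genes, 5 passed the filter and 3 of these were called, all higher under Ang II, where 8.66% of the 11994 genes tested were called and 6.38% were called higher. *Acta1* rose from 1.05 ± 0.938 to 67.5 ± 62.0 FPKM (SD, n = 5 each), at a log2 fold change of 3.86 (SE 1.11, adjusted p = 0.0212 in limma). *Tnnt3* rose from 1.51 ± 0.552 to 30.8 ± 29.7 FPKM, at a log2 fold change of 2.64 (SE 0.88, adjusted p = 0.0362 in limma). *Mylpf* rose from 1.16 ± 0.303 to 11.5 ± 9.95 FPKM, at a log2 fold change of 2.01 (SE 0.58, adjusted p = 0.0221 in limma). *Acta1*, *Tnnt3*, *Mylpf* and *Ckm* passed the filter partly through the Ang II-treated mice, since none of them reached 1 FPKM in all 5 saline-treated mice. *Ckm* gave a log2 fold change of 1.64 (SE 0.64, adjusted p = 0.0632 in limma) and *Tcap* of -0.61 (SE 0.39, limma adjusted p = 0.221), and neither was called. The SDs came close to the means because the treated group held low and high aortas. None of the 10 genes separated the groups without overlap, whereas 17.3% of all genes tested did.

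The other 5 genes lay below the filter and were compared by the two-sided exact permutation test, whose smallest possible p with 5 mice against 5 is 0.00794. The mean difference in log2(FPKM + 1) was 1.40 for *Myh1* (exact permutation p = 0.0238), 0.63 for *Myh2* (p = 0.0476) and 2.02 for *Myh4* (p = 0.0317). It was 2.55 for *Pvalb* (exact permutation p = 0.0159) and 2.58 for *Atp2a1* (p = 0.0476). These p-values are not adjusted for the number of genes. All 5 rose above 0.05 when any saline-treated WT mouse was left out. With 4 mice against 5, placing Ang II-treated WT replicates 2 to 5 in the smaller group gives a larger difference than the observed one. That relabeling counts in p whichever saline-treated mouse is removed, so the rise cannot show that the result rests on single saline-treated mice. Without Ang II-treated WT replicate 5 the difference of *Myh2* was 0.19 (exact permutation p = 0.0556), and without replicate 2 that of *Myh4* was 1.33 (exact permutation p = 0.0317). All 3 calls were lost when Ang II-treated WT replicate 2, 3 or 5 was left out, leaving 0 of 10 called, and also when the filter on low values was dropped. *Tnnt3* lost its call in 8 of the 10 fits that left out 1 mouse, including each saline-treated WT mouse in turn, with an adjusted p up to 0.0899.

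In *Plod1*-/- mice the same question gave a different answer. *Tcap* fell from 500 ± 147 FPKM under saline to 37.2 ± 29.0 FPKM under Ang II (SD, n = 5 each), at a log2 fold change of -4.02 (SE 0.50, adjusted p = 1.96e-04 in limma), with no overlap between the groups. It was the single gene called of 4 tested, where 13.9% of the 12333 genes tested were called, 5.51% were called lower and 29.2% had groups that did not overlap. The log2 fold change of *Acta1* was -0.23 (SE 0.32), that of *Tnnt3* 0.14 (SE 0.14) and that of *Mylpf* -0.22 (SE 0.12), and their adjusted p in limma was 0.587, 0.464 and 0.159. *Ckm*, below the filter, had a mean log2 difference of -0.50 (exact permutation p = 0.151). *Myh1*, *Myh2*, *Myh4*, *Pvalb* and *Atp2a1* did not reach 1 FPKM in any *Plod1*-/- mouse and no fold is given for them. The *Tcap* call held in each of the 10 fits that left out 1 mouse, with log2 fold changes from -4.40 to -3.58, and with both Xist libraries left out. In bulk tissue, fewer cells of a type and less RNA per cell cannot be told apart.

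**Figure D4:**
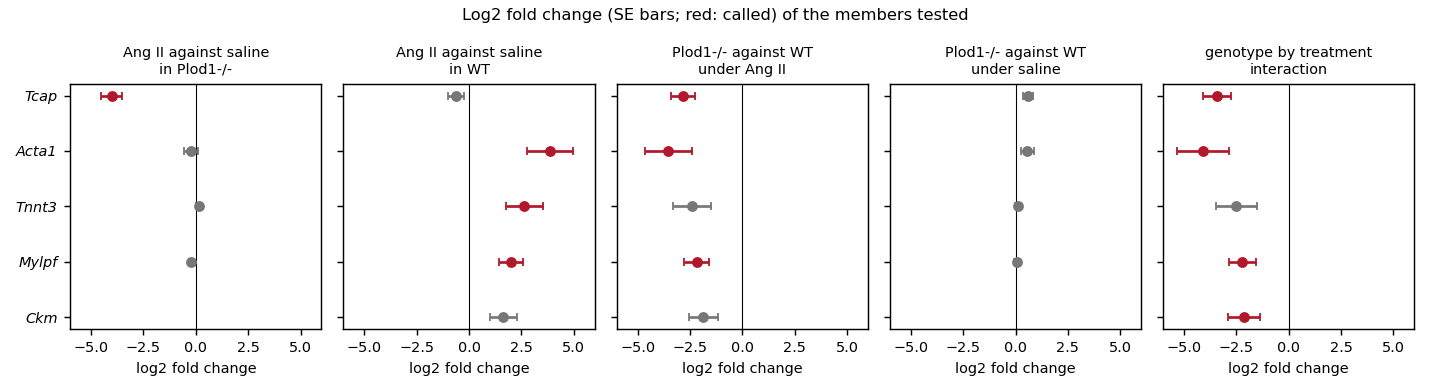
Log2 fold change on the log2(FPKM + 1) scale (horizontal axes) of the genes that passed the filter in each comparison, with SE bars, and in red those called. The *Tcap* point lies at -4.02 for Ang II in *Plod1*-/- mice and at -0.61 for Ang II in WT mice, whereas *Acta1*, *Tnnt3* and *Mylpf* lie above 2 in WT mice and close to 0 in *Plod1*-/- mice.

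Between the genotypes under Ang II, 3 of the 5 genes tested were called, all lower in *Plod1*-/- mice, where 11.1% of the 12356 genes tested were called and 3.67% were called lower. *Tcap* was lower at a log2 fold change of -2.81 (SE 0.58, adjusted p = 0.00678 in limma), *Acta1* at -3.53 (SE 1.13, limma adjusted p = 0.0363) and *Mylpf* at -2.18 (SE 0.60, limma adjusted p = 0.0207). *Tnnt3* gave a log2 fold change of -2.41 (SE 0.90, adjusted p = 0.0637 in limma) and *Ckm* of -1.87 (SE 0.69, limma adjusted p = 0.06). The filter was passed partly through the Ang II-treated WT mice by *Acta1*, *Mylpf* and *Ckm*, which did not reach 1 FPKM in all 5 *Plod1*-/- mice. The 5 genes below the filter had mean log2 differences from -2.54 (*Atp2a1*) to -0.63 (*Myh2*), with exact permutation p from 0.0159 to 0.0476, and from 0.0556 to 0.127 with the Xist library left out. All 5 also lost significance without any other Ang II-treated *Plod1*-/- mouse. The unequal group sizes bear on p there in the way described for the saline-treated WT mice, so this cannot show dependence on single mice. The difference of *Myh2* became -0.20 without Ang II-treated WT replicate 5, and that of *Myh4* became -1.35 without replicate 2. Again 0 of the 10 genes separated the groups without overlap, against 15.1% of all genes tested, since Ang II-treated WT replicate 1 lay among the *Plod1*-/- mice. Without Ang II-treated WT replicate 3 or 5 only *Tcap* remained called, without replicate 1 all 5 genes tested were called, and *Acta1* lost its call without replicate 2 of that group and without Ang II-treated *Plod1*-/- replicate 3, 4 or 5.

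Under saline the genotypes showed no called gene among the 4 tested, where 0.767% of the 11999 genes tested were called. *Tcap* averaged 332 ± 98.9 FPKM in the WT group and 500 ± 147 FPKM in the knockout group, at a log2 fold change of 0.60 (SE 0.26, adjusted p = 0.164 in limma), whereas *Acta1* stood at a log2 fold change of 0.56 (SE 0.32, adjusted p = 0.278 in limma). *Tnnt3* and *Mylpf* differed by 0.10 (SE 0.15) and 0.05 (SE 0.10) on the log2 scale, at an adjusted p in limma of 0.691 and 0.786. At an unadjusted limma p below 0.05, the count was 1 (*Tcap*). Apart from *Tcap*, these genes lay at or below 3.40 FPKM in all 10 saline-treated mice.

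The difference between the genotypes in their response to Ang II was tested as an interaction over all 20 mice. It was called for 4 of the 5 genes tested, each with a negative difference, against 16.1% of the 13263 genes tested and 6.36% with a negative difference. The interaction was -4.09 for *Acta1* (SE 1.26, limma adjusted p = 0.0165), -3.41 for *Tcap* (SE 0.67, limma adjusted p = 0.00104), -2.23 for *Mylpf* (SE 0.65, limma adjusted p = 0.0123) and -2.14 for *Ckm* (SE 0.76, limma adjusted p = 0.0345). For *Tnnt3* it was -2.51 (SE 0.98, limma adjusted p = 0.0504). The same sign came from opposite movements: *Acta1* and *Mylpf* rose in WT mice, whereas *Tcap* fell in *Plod1*-/- mice. *Ckm* lost its call in 10 of the 20 fits that left out 1 mouse, those without saline-treated WT replicate 2 or 4, Ang II-treated WT replicate 2, 3 or 5, saline-treated *Plod1*-/- replicate 1 or 3, or Ang II-treated *Plod1*-/- replicate 3, 4 or 5, with adjusted p up to 0.0694. The median log2 difference over all genes was 0.12 here and -0.04 after quantile normalization, and it moved from 0.12 to -0.04 between genotypes under Ang II and from 0.05 to -0.09 for Ang II in *Plod1*-/- mice, so the values stand relative to shifts of that size.

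Other genes of fast skeletal muscle were read from a list of 18. In the comparison of Ang II with saline in WT mice, 9 of them were tested, 1 was called higher and 1 lower, with a median log2 fold change of 0.07 against -0.14 over all genes tested. Over all genes 6.38% were called higher and 2.28% lower, so a single call each way among 9 genes was near the background. *Myl1*, the alkali light chain of fast myosin, rose from 0.828 ± 0.927 to 13.3 ± 9.99 FPKM, at a log2 fold change of 2.71 (SE 0.54, adjusted p = 0.00466 in limma), but it passed the filter through the Ang II-treated mice, since only 1 saline-treated mouse reached 1 FPKM. *Casq1*, a calcium store protein of the sarcoplasmic reticulum, fell from 40.4 ± 7.12 to 15.05 ± 9.73 FPKM, at a log2 fold change of -1.63 (SE 0.44, adjusted p = 0.016 in limma). *Casq1* also fell in *Plod1*-/- mice, at a log2 fold change of -2.44 (SE 0.43, adjusted p = 0.00131 in limma). Counted per library, 11, 9 and 9 of the 18 genes exceeded the other 15 mice in Ang II-treated WT replicates 2, 3 and 5, and 0 did in replicates 1 and 4, against the shares over all genes given above (5.52% to 11.2%). *Tnni2*, fast troponin I, picked for its values, was at 0.394, 38.5, 16.3, 1.75 and 22.4 FPKM in replicates 1 to 5 and 2.69 at most in the other mice. *Actn3*, the Z-disc actinin of fast fibres and also picked for its values, was at 0.802, 17.6, 10.4, 0.711 and 1.48 FPKM, high in the pair rich in *Myh4*.

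In the list of 8 slow skeletal muscle genes, 6 exceeded the other 15 mice in replicate 5 of the Ang II-treated WT group, 2 in replicate 2, 1 in replicate 3 and 0 in replicates 1 and 4. Over all genes the shares were 11.2%, 10.1% and 7.89% in replicates 5, 2 and 3, so the single gene in replicate 3 was near the background. The examples were chosen after their values were seen. *Myl2*, the slow regulatory light chain, was at 0.151, 0.0182, 0.0197, 0.393 and 3.76 FPKM in replicates 1 to 5, against 0.455 at most elsewhere. *Myh7*, the slow heavy chain, was at 0.0386, 0.0331, 0.0403, 0.122 and 0.599 FPKM, against 0.225 at most elsewhere. The high slow genes stood in the library with the highest *Myh1* and *Myh2*, and there *Tnnt1*, slow troponin T, was at 4.32 FPKM, close to *Myh2* and above *Myh4*. *Myoz2* was the single slow gene called, and it was lower under Ang II in WT mice, at a log2 fold change of -1.25 (SE 0.14, adjusted p = 0.00181 in limma). Of 9 myogenic regulators and genes of developing muscle, 0 passed the filter in any comparison. Counted per library, 0, 1, 2, 0 and 1 of the 9 exceeded the other 15 mice in replicates 1 to 5. The 11.1% in replicates 2 and 5 was near the shares over all genes, and replicate 3 had 22.2% against 7.89%. *Myf6*, picked for its values, was at 0.0875, 0.449, 0.395, 0.0276 and 0.256 FPKM in replicates 1 to 5, against 0.117 at most elsewhere.

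Genes that follow *Tcap* were sought in the Z-disc and titin-associated list of 13 genes, since telethonin sits in that structure. In *Plod1*-/- mice, 3 of the 7 tested were called lower under Ang II and 0 higher, with a median of -0.92 against 0.05 over all genes, of which 5.51% were called lower. *Pdlim3* fell from 122 ± 11.8 to 34.8 ± 24.3 FPKM, by 2.01 on the log2 scale (SE 0.36, limma adjusted p = 0.00128). *Ldb3* fell by 1.61 (SE 0.24, limma adjusted p = 4.54e-04) and *Synpo2l* by 1.11 (SE 0.21, limma adjusted p = 0.00184). In WT mice, where *Tcap* was not called, 2 of the 7 Z-disc genes tested were called lower, against 2.28% of all genes. Their median was -0.83 there, against -0.14 over all genes. Between genotypes under Ang II, where *Tcap* was called, 0 of 7 were called, against 11.1% of all genes. The list thus did not follow *Tcap* in every comparison. *Ttn*, the giant protein that *Tcap* caps, was at 0.187 FPKM at most in any mouse. Smooth muscle contractile genes also fell: 11 of 13 were called lower under Ang II in *Plod1*-/- mice, with a median of -1.80, and 3 of 13 in WT mice, where 2.28% of all genes were called lower, with a median of -0.84. *Myh11*, the smooth muscle heavy chain, fell from 1330 ± 177 to 332 ± 268 FPKM in *Plod1*-/- mice, by 2.27 on the log2 scale (SE 0.39, limma adjusted p = 0.00104). Ang II-treated *Plod1*-/- replicate 1 held Xist RNA. Its smooth muscle list summed to 21750 FPKM, inside the saline-treated *Plod1*-/- range of 20870 to 29090 FPKM. *Acta2* alone made up 14460 FPKM of this sum. *Tagln*, *Cnn1*, *Des* and *Actg2* lay above every saline-treated *Plod1*-/- mouse there. *Myh11*, *Smtn*, *Lmod1*, *Myl9*, *Mylk*, *Synpo2*, *Cald1* and *Tpm2* lay below every saline-treated *Plod1*-/- mouse. In that mouse *Tcap* was at 40.6 FPKM, against 330 or more under saline, and *Myh11* at 800.5 FPKM, against 1087 or more. In replicates 2 to 5 the list summed to 3355 to 8442 FPKM. The macrophage list moved the other way under Ang II in *Plod1*-/- mice, with 6 of 6 genes called higher against 8.38% of all genes, although *Itgam* passed the filter through the Ang II-treated mice alone. In Ang II-treated WT replicate 1 the macrophage genes summed to 1282 FPKM, against 195.5 to 287.2 FPKM in replicates 2 to 5. The part of these cell types in the fall of *Tcap* was not tested.

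Among 13258 other genes with within-group deviations over the 20 mice, the genes most like *Tcap* by Pearson r were *Cav1* (0.844), *Dbp* (0.843) and *Smim5* (0.824). For *Mylpf* they were *Tnni2* (0.947), *Yjefn3* (0.913) and *Spg7* (0.849), and for *Tnnt3* *Tnni2* (0.915), *Yjefn3* (0.84) and *Paxx* (0.828). For *Ckm* they were *Apobec2* (0.897), *Actn3* (0.851) and *Itpk1* (0.849), and for *Acta1* *Aamdc* (0.908), *Rsph3a* (0.902) and *Itpk1* (0.885). These values describe likeness only, and apart from *Tcap* they rest on the Ang II-treated WT libraries that stand apart. Of the genes named here, 0 were shared between *Tcap* and the other 4.

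Outside the Ang II-treated WT group, *Acta1*, *Tcap*, *Ckm*, *Tnnt3* and *Mylpf* reached 1 FPKM in at least 5 of the 15 mice, and their deviations from the group means were compared in 10 pairs. Pearson's r ran from -0.473 (*Tnnt3* with *Mylpf*) to 0.325 (*Tcap* with *Ckm*), and the smallest adjusted permutation p was 0.711 for r and 0.455 for Spearman's rho. For *Tcap* with *Ckm*, rho was 0.575 (permutation p = 0.0455, adjusted p = 0.455), and r was 0.582 without the 2 mice farthest from the median of *Tcap*. For *Tnnt3* with *Mylpf*, rho was -0.418 (permutation p = 0.192) and r was -0.708 without the 2 farthest mice. At the low levels of these 15 mice, no pair was shown to rise and fall together. No correlation over all 20 mice is given for these pairs, since the Ang II-treated WT libraries fall into separate clusters.

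Genes of other tissues were read in the same libraries. Brown adipocyte genes summed to 1851, 3027, 2095, 384 and 2264 FPKM in Ang II-treated WT replicates 1 to 5 and to between 23.9 and 268 FPKM in saline-treated WT, 17.1 and 908 in saline-treated *Plod1*-/- and 71.9 and 516 in Ang II-treated *Plod1*-/- mice, and 4, 6, 5, 0 and 5 of their 7 genes exceeded all the mice outside their group, against 5.52% to 11.2% of all genes. In WT mice 4 of the 5 brown adipocyte genes tested were called higher under Ang II, as were 7 of 7 white adipocyte genes, against 6.38% of all genes. The called genes included *Ucp1*, *Elovl3*, *Kcnk3* and *Plin1*, which passed the filter partly through the Ang II-treated mice. *Ucp1*, the uncoupling protein of brown fat, was at 1356, 1879, 1317, 208 and 1201 FPKM. In replicate 1 the brown adipocyte genes were thus high while none of the 9 genes exceeded the other mice. In replicates 2, 3 and 5 both were high. *Myl1* was at 4.07 FPKM in replicate 1, above the saline-treated WT mice (2.40 at most) but below the highest mouse outside the group (8.86 FPKM). *Cpt1b*, in the brown adipocyte list, is also expressed in muscle. Heart muscle genes summed to 11.04 to 24.6 FPKM in Ang II-treated WT mice, with 0 of 8 genes above the other mice in any of these libraries. *Myh6*, a heavy chain of heart muscle, picked for its values, was highest elsewhere, at 22.1 FPKM in saline-treated WT replicate 3, 44.7 in saline-treated *Plod1*-/- replicate 1 and 10.6 in Ang II-treated *Plod1*-/- replicate 5, where the 9 genes summed to 6.22, 5.92 and 4.76 FPKM. The adipocyte, heart and mitochondrial values are given beside the muscle genes, and their part in the result was not tested. The source of the skeletal muscle RNA was not tested.

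**Figure D5:**
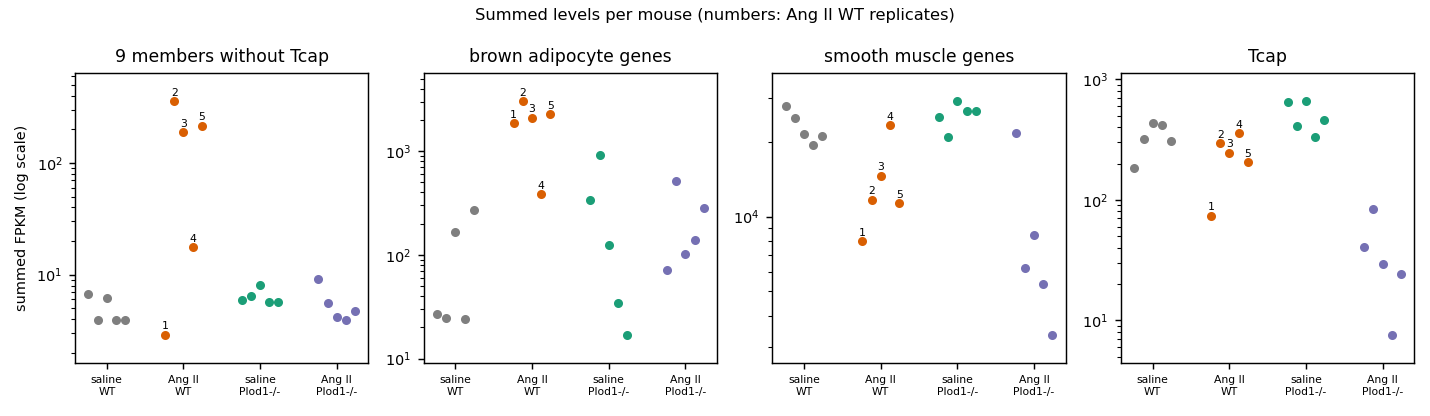
Summed FPKM per mouse on log scales (vertical axes), by group (horizontal axes), of the 9 genes without *Tcap*, of 7 brown adipocyte genes and of 13 smooth muscle genes, and the FPKM of *Tcap*, with the replicate number beside the Ang II-treated WT mice. Replicate 1 lies at the bottom for the 9 genes, at 2.91 FPKM, and high for the brown adipocyte genes, at 1851 FPKM.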

How the data were processed

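The abdominal aortas of 20 mice were sequenced, 5 in each of 4 groups, with groups and replicate numbers taken from the labels. The authors prepared unstranded libraries, used HISAT2 for alignment, then stringtie, cuffquant and cuffnorm for gene levels, and deposited FPKM values for 43422 Ensembl genes. The submitters' processing notes name mm10, HISAT2 2.1.0, Bowtie2 2.2.3 and HTSeq 0.6.0. Read counts were not used here, so depth is unknown beyond the relative depth. Symbols and coordinates came from GENCODE M21 (GRCm38), which gave a symbol to 43226 genes.

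FPKM were transformed to log2(FPKM + 1) and fitted with limma 3.58.1 (R 4.3.3, eBayes, variance trend), each comparison on its own 10 mice. Members below the filter were compared with exact permutation tests. On simulated data, 179 of 200 genes changed by 1.5 on the log2 scale were recovered with 1 false call. Recovery at the spread of the Ang II-treated WT mice was not tested. There the SD of *Acta1* on the log2(FPKM + 1) scale was 2.89, against 0.503 to 0.644 in the other groups. Correlations used 100000 permutations within groups. Plots were drawn with matplotlib 3.10.9. The members and lists were chosen with earlier results of these data known. Named genes are the members, called genes of each list with the largest changes, the 3 genes most like each member and label checks, and the text says where another gene was picked for its values.

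Alternatives were a pseudocount of 0.1, no filter, a replicate block, quantile normalization, mitochondrial genes left out, no variance trend, arrayWeights, all 4 groups in one fit, both Xist libraries left out, and each mouse left out in turn.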

Additional observations from a re-analysis of the deposited data

Results flagged for a closer look

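*Myh2* in Ang II-treated WT replicate 5, at 4.34 FPKM, lay far above the other 4 mice of its group. *Myh4* in Ang II-treated *Plod1*-/- replicate 1, at 0.0575 FPKM, lay far above the other mice of its group on a scale where all values are close to 0. These were 2 of 40 sets of 5 mice examined, and chance alone would give about 1 in 20. The response to Ang II differed between the genotypes by the interaction test for *Acta1* (-4.09), *Tcap* (-3.41), *Ckm* (-2.14) and *Mylpf* (-2.23), on the log2(FPKM + 1) scale.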

How the results depend on the processing

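Of 395 values of single genes recomputed with a mouse left out, 301 kept their direction and call, 83 lost and 9 gained significance, and 2 turned direction. Of 251 recomputed under the other alternatives, 216 kept their direction and call, 23 lost and 10 gained significance, and 2 turned direction. The latter were *Tnnt3* under Ang II in *Plod1*-/- mice with quantile normalization (-0.0381) and *Mylpf* between genotypes under saline with arrayWeights (-0.0035). In WT mice the count of 3 members called under Ang II became 0 with no filter on low values, and ran from 0 to 4 when a mouse was left out. Between genotypes under Ang II the count of 3 became 1 with no filter, 5 with arrayWeights and 5 with all 4 groups in one fit, and ran from 1 to 5 when a mouse was left out. With no filter many more genes enter the adjustment. Leaving out a mouse took the saline comparison of *Tnnt3* from -0.0026 to 0.21 and of *Mylpf* from -0.0138 to 0.12. The *Tcap* calls held under every alternative run. With the replicate block, the counts were 1, 3, 2, 0 and 4 in the order of the report's comparisons for *Plod1*-/-, WT, genotypes under Ang II, genotypes under saline and interaction, and *Acta1* between genotypes under Ang II had a limma adjusted p of 0.056. Same-numbered mice correlated from -0.372 to 0.434, and in each comparison from 0 to 2 of 5 mice were most like the mouse of their own number. The mice were treated as unpaired. Without a range for mice of different numbers, this check cannot exclude pairing. Quantile normalization changed the split of all calls from 1034 higher and 680 lower to 887 and 880 in *Plod1*-/- mice, from 920 and 453 to 733 and 632 between genotypes under Ang II, and from 1285 and 844 to 981 and 1146 for the interaction. The planned correlation of the members over all 20 mice was not run, and the one over 15 mice was chosen after seeing the data. It called 0 of 10 pairs, also on raw FPKM. Without read counts, levels under about 1 FPKM cannot be given a counting error.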
